A study of Mus musculus with 137 samples.

Results

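Whole lungs of young mice were compared 28 days after bleomycin or saline was put into the trachea, across all genes with enough reads. The comparison holds every library labelled young, day 28 and either bleomycin (5 lungs) or saline (5 lungs), which is 10 libraries in 2 of the 26 groups of the series. The series followed male C57BL/6J mice of 2 ages, young (8 to 12 weeks) and old (21 months), for up to 56 days by mRNA sequencing of whole lung. The 5 young bleomycin mice received 0.7 mg/kg intratracheally and the 5 young saline mice received the NaCl vehicle by the same route. No allele, transgene or other agent is named in the labels, and each library is 1 lung sample of 20 mg of flash-frozen tissue. Groups used beside them are young mice on day 21 (4 bleomycin, 5 saline), on day 35 (4 and 4), old mice on day 28 (5 and 5, bleomycin at 0.63 mg/kg), young saline mice of days 14, 42 and 56 (5 each) and 4 untreated young mice of day 0. The labels state no cage, surgery or library batch. Each p-value rests on a spread between lungs of the same group that is shared over all groups of the series and may be technical, and 4146 rather than 5371 genes were called when only the 10 lungs were fitted.

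Bleomycin is a chemotherapy drug that breaks DNA. Given into the airway of a mouse it injures the alveolar epithelium, and inflammation is followed by a phase in which fibroblasts lay down collagen-rich matrix, macrophages derived from blood monocytes enter, and alveolar type 2 cells pass through a transitional state on the way to new type 1 cells. In this model the scar tends to resolve with time in young animals. The expression lists below follow those compartments: the matrix and the signals that drive it, the stromal, immune, epithelial and endothelial cells of the lung, and stress and metabolic programmes. In bulk tissue, fewer cells of a type and less RNA per cell cannot be told apart.

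Each of the 10 lungs gave 18786758 to 26996031 assigned reads. Of 18396 genes tested, 5371 (29.2%) passed a Benjamini-Hochberg adjusted p under 0.05 in edgeR's quasi-likelihood test, 2703 of them higher in bleomycin lungs (14.7%) and 2668 lower (14.5%). The median log2 fold change over all genes tested was −0.00334. Many of the differences were small: 2431 of the called genes had an absolute log2 fold change under 0.5, while 609 were more than 1 log2 unit higher and 809 more than 1 lower. The values of the 5 bleomycin and the 5 saline lungs did not overlap at all for 3109 genes (16.9%), with 1479 higher (8.04%) and 1630 lower (8.86%). A gene is called below only if it passed the adjusted p, and it is described as separate, whether called or not, if no bleomycin lung overlapped a saline lung. Each list count below is to be read beside these shares over all genes. The pericyte, T cell, mast cell and basophil, interferon response, mesothelium, proliferation, oxidative phosphorylation and red blood cell lists had a smaller share called than all genes. Levels are CPM, read counts scaled to library size, given in the order of lungs 1 to 5 of each group, and every fold change is a log2 value, bleomycin minus saline, with its standard error (SE).

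**Figure D1:**
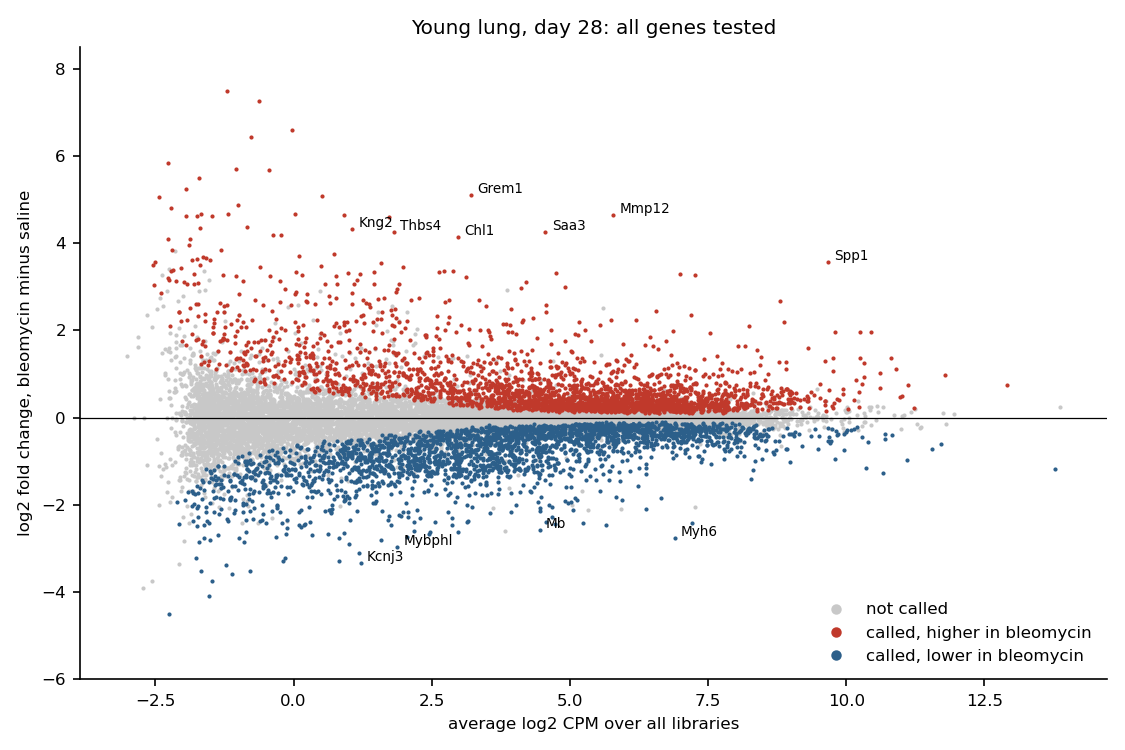
Mean level (average log2 CPM, x axis) against log2 fold change (bleomycin minus saline, y axis) for the 18396 genes tested, 1 point a gene, coloured by call. The called genes lie on both sides of 0 in near-equal number (2703 higher, 2668 lower), and the labelled genes include Grem1 at 5.10.

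The 5 bleomycin lungs were less alike than the 5 saline lungs. The first principal component of the 10 lungs carried 50.8% of the variance; saline lungs lay between 31.7 and 40.9 on it, and bleomycin lungs 1 to 5 lay at −32.4, −51.0, −76.1, −5.32 and −15.8. Lung 3 stood farthest from saline, and lungs 4 and 5 lay nearest to it. The spread of log2 CPM was larger among bleomycin than among saline lungs for 66.1% of genes. Over the 58 gene lists, lung 3 had the highest mean level of the 5 bleomycin lungs in 24 lists and the lowest in 19. Lung 3 was high for matrix, proliferation and p53 target lists and low for lymphocyte and alveolar type 2 lists. Without lung 3 the test called 2131 genes higher (11.6%) and 1782 lower (9.69%), and 3770 of the 5371 genes were still called. Lists whose count of calls moved by over 1.5 times without it have that count beside them.

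**Figure D2:**
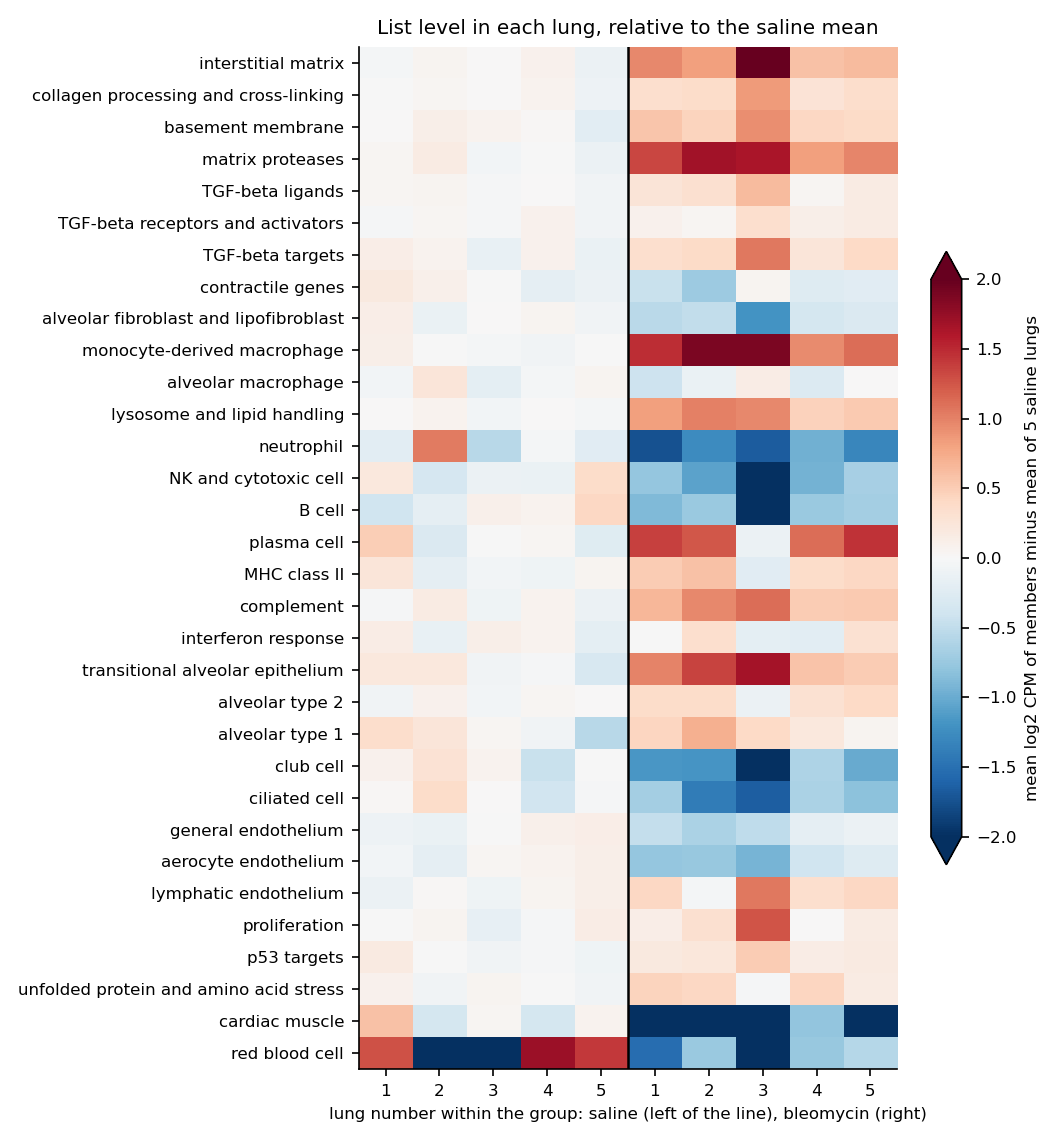
Mean log2 CPM of each of 32 gene lists (rows) in each of the 10 lungs (columns), minus the mean of the 5 saline lungs, with the colour scale held between −2 and 2 log2 units. Interstitial matrix and monocyte-derived macrophage rows were above the saline mean in all 5 bleomycin lungs, and cardiac muscle, club cell and ciliated cell rows were below it in all 5. Bleomycin lung 3 had the strongest colours in the interstitial matrix, collagen processing, basement membrane and B cell rows.

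The interstitial matrix, the collagens, glycoproteins and elastic fibres that fill the space between cells, rose. Of 30 genes, 24 were called higher and none lower, 20 were separate, and the median fold change was 1.01 beside −0.00334 over all genes. Tenascin C (Tnc), a matrix glycoprotein of healing tissue, was at 182, 155, 568, 95.6 and 106.8 CPM in bleomycin lungs and at 20.7, 29.3, 17.7, 24.3 and 20.3 CPM in saline lungs. Every bleomycin lung was far above every saline lung, and lung 3 was highest (log2 fold change 3.30 ± 0.44, adjusted p = 5.44e-09). Elastin (Eln) was at 1812, 1975, 4606, 1075 and 1764 CPM against 518, 560.1, 545, 605 and 630.4 CPM (log2 fold change 1.97 ± 0.31, adjusted p = 2.27e-07). Fibronectin (Fn1) was at 1903, 1659, 5505, 1131 and 1127 CPM against 600.4, 572, 574, 618 and 535 CPM (log2 fold change 1.97 ± 0.34, adjusted p = 3.58e-06). Both were separate, with lung 3 again highest. The thrombospondin Thbs4 had the largest rise of the list (1.34 to 13.5 against 0.207 to 0.311 CPM, log2 fold change 4.25 ± 0.65), and Sparc, which binds collagen and assists its assembly, rose by 1.11 ± 0.16.

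The fibrillar collagens had fold changes of 1.31 (Col1a1) and 1.24 (Col3a1), and part of their call rested on lung 3. Col1a1, the main chain of type I collagen, was at 834, 691, 2591, 655 and 765 CPM in bleomycin lungs and 459, 482, 445, 469 and 382 CPM in saline lungs. The groups did not overlap (log2 fold change 1.31 ± 0.31, adjusted p = 4.99e-04), yet lung 3 held more than 3 times the level of any other bleomycin lung, and without it the fold change was 0.74 with adjusted p = 0.0686. Col3a1, the chain of type III collagen, kept its call without lung 3 (1771, 1754, 3171, 1447 and 1578 against 783, 869.5, 831, 879.8 and 738 CPM, log2 fold change 1.24 ± 0.24, then 1.01 with adjusted p = 0.00104). Without lung 3 the list had 15 genes called higher and none lower, with a median of 0.62. Not every matrix gene was called. Cthrc1, a secreted marker of collagen-producing fibroblasts, reached adjusted p = 0.0546 (4.36 to 16.7 against 4.70 to 5.24 CPM), decorin (Dcn) was at 125.7 to 260.5 against 145.03 to 183 CPM, and Mfap4 was at 363 to 499.6 against 369 to 539 CPM. Periostin (Postn), a matricellular protein counted here with pericyte markers, was at 417, 388, 494, 458 and 478 CPM and at 456, 400.3, 448, 496 and 527 CPM, with full overlap (log2 fold change −0.06 ± 0.10, adjusted p = 0.717).

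Enzymes that fold, trim and cross-link collagen also rose, 14 of 22 higher and 1 lower (median 0.46; without lung 3, 10 higher and 1 lower). P4ha3, a prolyl hydroxylase subunit, moved most (9.06, 9.20, 35.3, 4.47 and 5.94 against 0.775, 1.73, 1.21, 1.13 and 1.42 CPM, log2 fold change 3.34 ± 0.50, adjusted p = 1.36e-07). Among cross-linking oxidases, Loxl2 was at 34.5 to 97.3 against 21.8 to 27.98 CPM (log2 fold change 1.10 ± 0.25), while Lox itself rested on lung 3 (log2 fold change 0.98 ± 0.28, adjusted p = 0.00382; adjusted p = 0.303 without it). The procollagen proteinases Adamts2 (log2 fold change 1.13 ± 0.20) and Bmp1 (log2 fold change 0.59 ± 0.13) rose. The proteinase enhancer Pcolce2 was the gene that fell (log2 fold change −0.76 ± 0.22; adjusted p = 0.0700 without lung 3). Serpinh1, the collagen chaperone of the endoplasmic reticulum, rose by 0.65 ± 0.16, and here lung 3 was not the highest (738, 762, 601, 719 and 588 CPM).

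In the basement membrane, the sheet under epithelium and endothelium, 13 of 21 genes rose and none fell (median 0.55; 10 higher without lung 3). The laminin chain Lama1 was at 39.9, 38.6, 81.5, 26.4 and 28.1 against 6.62, 8.08, 8.67, 6.72 and 9.81 CPM (log2 fold change 2.43 ± 0.35, adjusted p = 2.89e-08). The epithelial laminin chain Lamb3 (log2 fold change 0.79 ± 0.13) and the collagen IV chains Col4a1 (log2 fold change 1.03 ± 0.18) and Col4a2 (log2 fold change 0.92 ± 0.16) rose as well. The widely expressed laminin chains Lama4, Lamb1, Lamb2 and Lamc1 were not called, with fold changes of −0.16, 0.08, 0.08 and 0.32.

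Most of the proteases that cut matrix rose. Of 17 proteases, 13 rose and 1 fell, all 14 were separate, and the count was the same without lung 3 (median 1.36, then 1.2995). Mmp12, the macrophage elastase, was at 171, 241, 90.1, 69.6 and 51.3 CPM in bleomycin lungs against 4.497, 3.42, 5.47, 6.53 and 4.99 CPM in saline lungs (log2 fold change 4.64 ± 0.52, adjusted p = 1.09e-11). Lungs 1 and 2 were highest and lung 5 lowest, still several times above every saline lung. The collagenase Mmp13 was at 2.47, 2.99, 3.78, 2.05 and 2.73 against 0.672, 0.577, 0.969, 0.508 and 0.825 CPM (log2 fold change 1.98 ± 0.45, adjusted p = 2.94e-04). Mmp10 had no read in any saline lung and reached 0.533, 0.482, 2.82, 0.0539 and 0.695 CPM in bleomycin lungs. Gelatinase A (Mmp2, log2 fold change 1.64 ± 0.19), Mmp19 (log2 fold change 2.23 ± 0.25), the membrane protease Mmp14 (log2 fold change 1.19 ± 0.20) and the cathepsins Ctsk (log2 fold change 2.44 ± 0.30), Ctss (log2 fold change 2.18 ± 0.22) and Ctsd (log2 fold change 1.96 ± 0.22) rose. Gelatinase B (Mmp9), which neutrophils carry in granules, was the gene that fell (8.68, 14.99, 7.13, 18.2 and 20.1 against 63.01, 139.7, 48.98, 61.5 and 54.2 CPM, log2 fold change −2.42 ± 0.36). Against the mean of the other young saline days, 2 of the 17 proteases were called higher in the saline lungs of day 28, beside 0.299% of all genes called in either direction. How far the saline level of day 28 enters the fall of Mmp9 was not tested. Of 8 inhibitors, 4 rose and 1 fell. Timp1 was at 17.2, 29.8, 113.2, 13.6 and 12.3 against 6.67, 8.08, 5.38, 5.70 and 5.09 CPM (log2 fold change 2.59 ± 0.44, adjusted p = 1.87e-06; 1.58 without lung 3), while Timp2 and Timp3 were not called (0.17 and 0.17).

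Mmp12 and Mmp13 are shown with their promoters because both rose and both windows hold the 7-base core bound by AP-1, the dimer of Fos and Jun proteins. The windows run from 250 bases before to 50 bases after the annotated start (RefSeq, mouse build GRCm38.p6) and the core TGANTCA is in capitals. The core, searched on both strands, was in 4 of the 12 proteases with a window (Mmp3, Mmp10, Mmp12 and Mmp13, of which Mmp3 was not called) and in 7.81% of all 32851 windows. List counts are of genes with a match in any of their windows, while the share is over windows, here and for the later motifs. A match is a stretch of letters and not a measured binding site.
Mmp12 (chr9:7347124-7347423, plus strand): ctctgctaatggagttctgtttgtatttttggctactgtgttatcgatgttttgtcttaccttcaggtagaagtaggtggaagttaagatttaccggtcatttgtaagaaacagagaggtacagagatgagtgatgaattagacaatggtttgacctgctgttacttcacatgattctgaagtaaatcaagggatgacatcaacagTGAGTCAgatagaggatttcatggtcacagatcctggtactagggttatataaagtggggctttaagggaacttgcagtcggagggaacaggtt
Mmp13 (chr9:7272264-7272563, plus strand): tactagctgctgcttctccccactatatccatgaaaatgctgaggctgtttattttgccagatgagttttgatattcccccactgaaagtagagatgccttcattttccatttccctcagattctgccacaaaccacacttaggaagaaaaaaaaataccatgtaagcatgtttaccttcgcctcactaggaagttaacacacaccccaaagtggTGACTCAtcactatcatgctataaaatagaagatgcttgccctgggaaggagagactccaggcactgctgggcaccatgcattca

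Transforming growth factor beta signals, the best-known inducers of matrix genes, showed changes at each level from ligand to target. Of 10 ligands of the family, 5 rose and 2 fell (3 and 1 without lung 3, and 1 instead of 2 fell without bleomycin lung 2). Tgfb3 was at 81.2, 95.5, 103.8, 61.9 and 77.3 against 45.3, 52.1, 48.5, 51.3 and 50.3 CPM (log2 fold change 0.76 ± 0.14, adjusted p = 1.16e-05), and Tgfb2 rose by 0.59 ± 0.13. Tgfb1 rose by only 0.24 ± 0.08 (adjusted p = 0.0126; adjusted p = 0.0637 without lung 3). The activin subunit Inhba was at 2.28, 2.31, 14.2, 0.970 and 0.963 against 0.672, 1.07, 1.02, 0.899 and 1.10 CPM, a call that rested on lung 3 (adjusted p = 6.38e-04, then adjusted p = 0.266), and Bmp6 fell (log2 fold change −0.88 ± 0.22). Among 15 receptors and activators, 7 rose and 5 fell. Those that rose were Tgfbr1 (log2 fold change 0.56 ± 0.09), Tgfbr2, the integrin chains Itgav, Itgb6 and Itgb8 that release latent ligand, and the latent binding proteins Ltbp2 (log2 fold change 1.39 ± 0.26) and Ltbp3. Those that fell were Tgfbr3 (log2 fold change −0.80 ± 0.12), Ltbp4 and 3 receptors or co-receptors rich in endothelium, Eng, Bmpr2 and Acvrl1.

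Among 11 targets, 6 rose and 2 fell (median 0.66; 4 and 2, median 0.28, without lung 3). Cilp, a secreted matrix protein, was at 27.8, 28.4, 85.2, 13.4 and 20.5 against 3.20, 6.57, 4.02, 5.04 and 3.30 CPM (log2 fold change 2.98 ± 0.43, adjusted p = 4.74e-08). The connective tissue growth factor Ccn2 was called only with lung 3 (185, 203, 616, 220.3 and 216 against 249, 141.7, 144.6, 162 and 162 CPM, adjusted p = 0.00515, then adjusted p = 0.373). The inhibitory Smads Smad6 (log2 fold change −1.07 ± 0.21) and Smad7 (log2 fold change −0.46 ± 0.10), themselves targets of the pathway, fell. Of 9 antagonists, 3 rose and 3 fell (1 and 3 without lung 3). Gremlin 1 (Grem1), which traps bone morphogenetic proteins, had the largest rise among called, separate genes with an average log2 CPM above 1. It was at 9.02, 7.61, 55.4, 3.66 and 6.69 CPM against 0.672, 0.489, 0.436, 0.469 and 0.321 CPM (log2 fold change 5.10 ± 0.73, adjusted p = 3.30e-08), and without lung 3 still rose by 3.84 (adjusted p = 2.38e-05). Follistatin (Fst) was high in lung 3 alone (7.20, 7.23, 53.3, 6.52 and 4.71 against 7.86, 4.84, 6.15, 8.09 and 5.87 CPM, adjusted p = 0.0213; −0.01 and adjusted p = 0.990 without it).

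Of 23 other growth factors, 6 rose and 5 fell. Insulin-like growth factor 1 (Igf1) was at 83.1, 96.1, 199.7, 52.2 and 65.8 against 18.2, 26.9, 19.7, 22.6 and 17.2 CPM, separate in all lungs (log2 fold change 2.25 ± 0.30, adjusted p = 5.01e-09). Amphiregulin (Areg), a ligand of the epidermal growth factor receptor, was at 14.01, 18.7, 15.9, 11.9 and 11.98 against 6.93, 3.38, 3.44, 4.61 and 3.85 CPM (log2 fold change 1.71 ± 0.29). Pdgfc (log2 fold change 1.298 ± 0.23) and Il34 (log2 fold change 0.56 ± 0.10) rose. Angpt1, which steadies vessels, fell (log2 fold change −0.60 ± 0.09), as did the fibroblast-made epithelial factors Fgf7 (log2 fold change −0.60 ± 0.12) and Fgf10 (log2 fold change −0.44 ± 0.12). Pdgfa, Pdgfb, Csf1 and Hgf were not called. In the Wnt and Hedgehog list, 7 of 19 rose and 7 fell (7 and 3 without lung 3; 4 fell without bleomycin lung 2). The secreted modulators Sfrp1 (67.1, 81.4, 184, 50.5 and 49.9 against 23.6, 36.4, 22.5, 29.5 and 22.5 CPM, log2 fold change 1.68 ± 0.30) and Dkk2 (log2 fold change 2.95 ± 0.56) rose, the ligand Wnt2 fell (8.76, 11.9, 7.29, 9.38 and 11.9 against 20.5, 16.5, 22.2, 20.6 and 18.3 CPM, log2 fold change −0.995 ± 0.18), and the pathway readouts Axin2 (log2 fold change −0.33 ± 0.10) and Lef1 (log2 fold change −0.79 ± 0.24) fell. Axin2 was not called without bleomycin lung 2 or without lung 3.

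Of 14 alveolar fibroblast and lipofibroblast markers, 10 fell and 2 rose (median −0.57; 9 and 2 without lung 3). Inmt, a methyltransferase, was at 706, 686, 321, 915 and 999 against 1879.7, 1263, 1639, 1701 and 1558 CPM (log2 fold change −1.15 ± 0.24, adjusted p = 1.10e-04). The amino acid transporter Slc7a10 was at 12.5, 10.2, 1.97, 21.1 and 27.4 against 57.8, 37.5, 60.4, 55.9 and 61.1 CPM (log2 fold change −1.90 ± 0.39). In both genes lung 3 was lowest and lungs 4 and 5 were nearest to saline. Tcf21, a transcription factor of this lineage, was at 52.2, 52.8, 34.7, 73.99 and 69.2 against 105.3, 69.9, 81.2, 88.4 and 77.6 CPM, with overlap (log2 fold change −0.58 ± 0.16, adjusted p = 0.00361; adjusted p = 0.0512 without lung 3), and Npnt was not called (−0.21 ± 0.12). The 2 that rose, the lipase Lpl (log2 fold change 1.27 ± 0.19) and the lipid droplet protein Plin2 (log2 fold change 0.74 ± 0.13), are also made by macrophages. Among 10 adventitial fibroblast markers 3 rose and 2 fell, with Pi16 at 11.2, 5.35, 12.5, 17.7 and 12.03 against 33.8, 41.8, 27.2, 26.4 and 28.4 CPM (log2 fold change −1.43 ± 0.21) and Mfap5 at 76.7, 82.5, 116.03, 55.9 and 71.6 against 34.7, 33.7, 31.8, 37.4 and 33.4 CPM (log2 fold change 1.23 ± 0.20). Of 11 pericyte markers 1 rose (Kcnj8, log2 fold change 0.64 ± 0.17) and 1 fell (Gucy1a1, log2 fold change −0.33 ± 0.11). Gucy1a1 was not called without bleomycin lung 2, bleomycin lung 3 or saline lung 5, and 2 markers rose without bleomycin lung 1 or 2.

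Contractile genes, made by smooth muscle and by myofibroblasts, were not higher as a group: 1 of 13 rose (none without lung 3) and 7 fell (median −0.32). Smooth muscle actin (Acta2), the usual marker of myofibroblasts, was at 110.99, 88.1, 212, 122.2 and 119.3 CPM in bleomycin lungs and 177, 163, 149.2, 116.4 and 123.4 CPM in saline lungs. The groups overlapped and Acta2 was not called (log2 fold change −0.16 ± 0.19, adjusted p = 0.577); lung 3 alone was above all saline lungs. Smooth muscle myosin (Myh11) was at 100.7, 66.4, 111.2, 130.7 and 136.8 against 181, 223, 190.5, 157 and 174 CPM (log2 fold change −0.76 ± 0.17, adjusted p = 1.63e-04) and calponin (Cnn1) at 14.8, 8.48, 13.1, 19.4 and 19.6 against 42.5, 35.4, 27.1, 21.9 and 28.1 CPM (log2 fold change −1.04 ± 0.24). The count of 7 was 2 without bleomycin lung 1, bleomycin lung 2 or saline lung 2, 3 without saline lung 1 or 3, and 4 without saline lung 5.

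**Figure D3:**
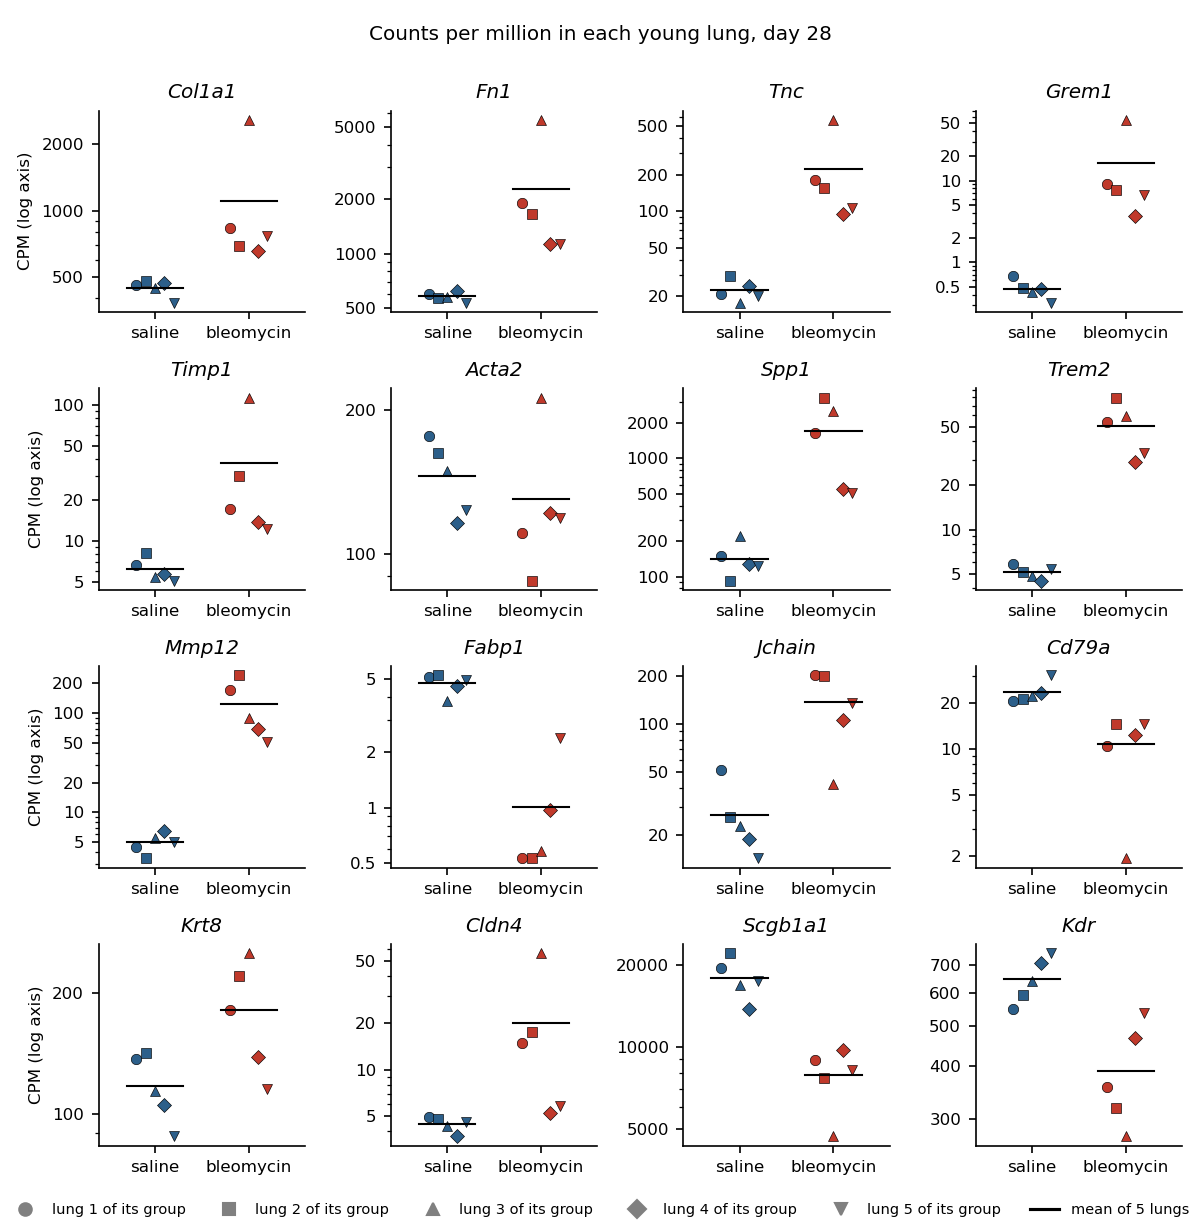
Level of 16 genes (CPM, log axis) in each of the 5 bleomycin and 5 saline lungs, with 1 marker shape per lung number and a line at the group mean. Tnc, Grem1, Timp1, Spp1, Trem2 and Mmp12 show no overlap between groups, bleomycin lung 3 is the top point for Col1a1 and the bottom point for Cd79a, and Acta2 overlaps.

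The mean level of marker genes of monocyte-derived macrophages was above that of saline in all 5 bleomycin lungs. Of 18 markers of macrophages derived from monocytes, 15 rose, none fell and 13 were separate (median 1.39; 14 and 1.38 without lung 3). Trem2, a lipid-sensing receptor, was at 54.2, 79.4, 59.1, 28.9 and 33.1 CPM against 5.84, 5.15, 4.80, 4.49 and 5.36 CPM (log2 fold change 3.31 ± 0.27, adjusted p = 4.06e-18). Osteopontin (Spp1) was at 1650.2, 3251, 2498, 547 and 513 CPM against 149.2, 93.01, 221, 127.8 and 122.99 CPM (log2 fold change 3.57 ± 0.39, adjusted p = 2.95e-12). In these genes lung 2 was highest and lungs 4 and 5 lowest among the bleomycin lungs. Gpnmb (log2 fold change 3.28 ± 0.32), Ms4a7 (log2 fold change 2.201 ± 0.26), apolipoprotein E (Apoe, log2 fold change 1.37 ± 0.15) and the complement C1q chains C1qa, C1qb and C1qc (by 1.76, 1.99 and 1.85) rose. Arginase 1 (Arg1) was high in lung 3 (4.07, 7.42, 34.8, 2.21 and 2.73 against 1.76, 1.42, 1.21, 1.25 and 2.25 CPM; adjusted p = 0.00199, then adjusted p = 0.163 without it). The monocyte markers Ccr2 and Ly6c2 were not called (0.35 and −0.15).

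Markers of resident alveolar macrophages split, 7 of 15 higher and 5 lower (median 0.49; 6 and 6, median 0.15, without lung 3). The lipid-binding protein Fabp1 fell from 5.12, 5.24, 3.83, 4.61 and 4.95 CPM in saline lungs to 0.533, 0.530, 0.585, 0.970 and 2.41 CPM in bleomycin lungs (log2 fold change −2.26 ± 0.42, adjusted p = 1.42e-05). Krt79 was at 2.28, 4.87, 1.81, 6.84 and 14.4 against 24.4, 30.8, 18.7, 22.7 and 23.1 CPM (log2 fold change −2.005 ± 0.38) and Cidec at 3.73, 2.89, 2.87, 10.3 and 11.6 against 19.6, 25.8, 16.4, 15.7 and 19.3 CPM (log2 fold change −1.64 ± 0.37). Lungs 4 and 5 were closest to saline in all 3 genes. Atp6v0d2 (log2 fold change 1.66 ± 0.19), Itgax (log2 fold change 1.14 ± 0.16) and Mrc1 (log2 fold change 0.79 ± 0.16), which other macrophages also make, were among the 7 members that rose. The mean CPM of Olr1, another that rose, was 1.97 times that of saline lungs. Marco was high in lung 3 and low in the other bleomycin lungs (6.47, 15.7, 79.4, 8.41 and 10.8 against 25.1, 31.8, 17.3, 23.9 and 24.7 CPM). It was not called with all 5 (adjusted p = 0.967) and was lower without lung 3 (−1.24, adjusted p = 0.0273).

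Lysosome and lipid-handling genes rose almost as a whole: 16 of 17 higher and 1 lower (median 0.72; 16 and none without lung 3). Prosaposin (Psap), which helps enzymes degrade sphingolipids, was at 2835, 3546, 3000.4, 1810.2 and 1911 against 1065, 1031, 969, 1016 and 966 CPM (log2 fold change 1.38 ± 0.15, adjusted p = 3.21e-12). The scavenger receptor Msr1 was at 25.4, 42.02, 55.8, 13.5 and 13.5 against 4.39, 3.33, 3.25, 3.28 and 3.25 CPM (log2 fold change 3.10 ± 0.36). The acid lipase Lipa (log2 fold change 1.10 ± 0.13), the hexosaminidase subunit Hexa and the cholesterol exporter Abca1 (235 to 431 against 126.7 to 162 CPM) rose, and the fatty acid receptor Cd36 fell (log2 fold change −0.29 ± 0.10; not called without bleomycin lung 3 or saline lung 5). Lamp1 and Nceh1, which rose by 0.37 ± 0.07 and 0.49 ± 0.08, are shown because their windows hold the core TCACGTG of the element known to mark lysosomal genes, in capitals. That core was in 3 of the 13 list genes with a window (Gla was the other) and in 3.77% of all windows on either strand, and the Lamp1 window holds it at 4 places.
Lamp1 (chr8:13158911-13159210, plus strand): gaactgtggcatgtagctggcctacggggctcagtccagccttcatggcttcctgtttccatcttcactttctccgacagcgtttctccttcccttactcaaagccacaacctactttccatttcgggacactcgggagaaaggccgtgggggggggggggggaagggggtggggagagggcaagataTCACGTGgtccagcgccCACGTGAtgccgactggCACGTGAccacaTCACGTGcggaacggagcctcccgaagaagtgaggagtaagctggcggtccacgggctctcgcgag
Nceh1 (chr3:27182754-27183053, plus strand): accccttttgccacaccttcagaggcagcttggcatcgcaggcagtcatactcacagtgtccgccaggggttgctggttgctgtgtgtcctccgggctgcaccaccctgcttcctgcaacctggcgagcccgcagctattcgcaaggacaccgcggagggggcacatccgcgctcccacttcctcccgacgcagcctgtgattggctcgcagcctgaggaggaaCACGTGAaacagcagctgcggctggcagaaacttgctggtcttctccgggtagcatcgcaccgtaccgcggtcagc

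Of 27 chemokines, 12 rose and 1 fell. Ccl6 (564, 778, 589, 374 and 338 against 165, 237, 159.8, 175 and 167 CPM, log2 fold change 1.55 ± 0.21), Ccl9 (log2 fold change 2.01 ± 0.28) and Cxcl16 (log2 fold change 0.94 ± 0.11), all made by macrophages among other cells, had the smallest p-values. The monocyte attractant Ccl2 was at 4.42, 8.34, 15.8, 2.91 and 3.64 against 3.05, 1.82, 1.55, 2.11 and 1.24 CPM (log2 fold change 1.84 ± 0.36), and the membrane-bound chemokine Cx3cl1 fell (log2 fold change −0.61 ± 0.09). Cxcl13, which draws B cells, was not called (7.77, 6.60, 9.37, 6.90 and 7.595 against 11.5, 5.51, 4.55, 5.28 and 3.94 CPM, adjusted p = 0.608). Of 18 cytokines, 8 rose and 1 fell (4 and none without lung 3; 5 rose without bleomycin lung 2). Leukaemia inhibitory factor (Lif, log2 fold change 1.198 ± 0.25), Il1a (log2 fold change 0.68 ± 0.18) and the alarm signal Il33 (log2 fold change 0.54 ± 0.14) rose. Il11 was called only with lung 3 (adjusted p = 0.113 without it). Il6 (log2 fold change 1.25 ± 0.47) lost its call without lung 3 or without any one of saline lungs 2 to 5, and Il1b, the gene that fell (log2 fold change −0.84 ± 0.33), was called in 3 of the 10 fits that leave out 1 lung. Tnf and Ifng were not called.

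Of 10 genes of type 2 responses, 5 rose, or 3 without lung 3. Retnla was at 79.96, 87.2, 212, 33.2 and 46.9 against 34.4, 48.2, 27.2, 21.3 and 22.5 CPM (adjusted p = 0.0141, then adjusted p = 0.164), and Ccl17 rose in both settings (log2 fold change 1.19 ± 0.26). Of 15 complement genes 9 rose and 1 fell, led by the receptor C3ar1 (29.1, 34.9, 42.8, 20.5 and 21.3 against 5.07, 6.88, 5.96, 6.76 and 5.68 CPM, log2 fold change 2.29 ± 0.24), while C3 itself overlapped (1394, 1861, 1808, 1443 and 1329 against 1041, 1673, 1209, 1512 and 1223 CPM, adjusted p = 0.264). Interferon response genes were near the level of saline, with 1 of 23 called (Oas1a, log2 fold change 0.78 ± 0.25) and a median of 0.01. Of 8 genes of the MHC class II pathway, which presents antigen to helper T cells, 6 rose and 1 fell. Cd74 was at 1929, 2053, 1317, 1645 and 1668 against 1364, 958, 1019, 1019.8 and 1046 CPM (log2 fold change 0.67 ± 0.15). The gene that fell, H2-Ob, is a gene of B cells (17.4, 20.4, 3.83, 19.3 and 20.9 against 22.4, 26.7, 32.7, 30.5 and 40.4 CPM; adjusted p = 0.198 without lung 3, and called in 5 of the 10 such fits). Of 10 dendritic cell markers 5 rose, among them Fscn1 (log2 fold change 1.36 ± 0.18) and Batf3 (log2 fold change 1.42 ± 0.25), and Siglech, a marker of plasmacytoid cells, fell (log2 fold change −1.13 ± 0.33).

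Neutrophil genes were lower in bleomycin lungs, 6 of 12 called and 7 separate (median −1.83). The receptor for the growth factor of neutrophils (Csf3r) was at 33.9, 36.2, 28.7, 86.8 and 54.7 against 139.9, 291, 118.2, 189 and 127.2 CPM (log2 fold change −1.85 ± 0.36, adjusted p = 3.09e-05), and the calprotectin chain S100a8 at 15.2, 32.9, 15.5, 39.8 and 25.5 against 81.7, 180.0, 49.03, 87.5 and 53.8 CPM (log2 fold change −1.81 ± 0.46). Saline lung 2 was highest in both genes, and the count was 6 in every one of the 10 fits that leave out 1 lung. The saline lungs of day 28 were themselves high for these genes: against the mean of the other young saline days, 6 of the 12 were called higher there (median 1.11), Csf3r by 1.14 with an adjusted p of 0.00922. Without saline lung 2 the edgeR test of that comparison called 0 genes of any kind, with 919 at an unadjusted p under 0.05. Each against its own saline lungs, bleomycin lungs had 3 of the 12 lower on day 21 (median −0.96), none called on day 35 (median 0.20, Csf3r 0.14) and 9 lower in old mice on day 28 (median −1.58). The part of the saline level in the fall was not tested.

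The lymphocyte lists moved in different directions. Of 13 B cell genes, 11 fell and none rose (median −1.11), and 10 were separate and lower, beside 8.86% of all genes. The count of calls moved with single lungs: 1 fell without bleomycin lung 3 (median −0.85), 2 without saline lung 5 and 7 without saline lung 3. The mean log2 CPM of the list was below the saline range in all 5 bleomycin lungs (−0.89, −0.74, −2.86, −0.74 and −0.68 from the saline mean). The saline lungs of day 28 had a median of 0.59 for these genes against the other young saline days, with none called. How far that saline level enters the fall was not tested. Cd79a, a chain of the B cell receptor, was at 10.5, 14.7, 1.92, 12.4 and 14.7 CPM in bleomycin lungs against 20.8, 21.3, 22.3, 23.4 and 30.4 CPM in saline lungs. The groups did not overlap, and bleomycin lung 3 was far below the others (log2 fold change −1.13 ± 0.42, adjusted p = 0.0314; −0.85 and adjusted p = 0.157 without it, and no call without bleomycin lung 1 or saline lung 5 either). Genes of plasma cells, which secrete antibody, rose: 7 of 17 higher and 1 lower (7 and none without lung 3; the fall was also lost without bleomycin lung 1 or 2 or saline lung 2, 3, 4 or 5). Jchain, which joins antibody units, was at 202, 199.5, 42.3, 106.3 and 136.1 against 51.5, 26.2, 22.96, 19.03 and 14.3 CPM (log2 fold change 2.36 ± 0.59, adjusted p = 0.00113), with bleomycin lung 3 again lowest and overlapping saline lung 1. The constant region gene of IgA (Igha) was at 889, 939.8, 236, 529 and 635 against 141.1, 70.4, 130.03, 96.2 and 66.4 CPM (log2 fold change 2.68 ± 0.71), while that of IgM (Ighm) was not called (446, 117.2, 28.05, 143.01 and 258 against 361, 212, 145.2, 147.9 and 181 CPM).

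Of 13 genes of natural killer and cytotoxic cells, 6 fell and none rose (median −1.24), and 3 fell without lung 3. Of the 13, 10 were separate and lower, beside 8.86% of all genes, and 11 were called lower when only the 10 lungs were fitted. The mean log2 CPM of the list was below the saline range in all 5 bleomycin lungs. Ncr1 was at 2.40, 1.93, 0.160, 3.39 and 2.67 against 4.29, 5.82, 6.88, 6.13 and 7.61 CPM (log2 fold change −1.54 ± 0.42, adjusted p = 0.00299) and Gzma at 6.97, 5.93, 0.798, 6.79 and 7.49 against 15.4, 11.2, 13.4, 12.7 and 19.7 CPM (adjusted p = 0.0270, then adjusted p = 0.126 without lung 3; also lost without bleomycin lung 2 or saline lung 5). Of 18 T cell genes, 1 fell (Lef1) and 1 rose, Foxp3, the regulator of suppressive T cells (2.09, 1.88, 1.17, 1.72 and 1.12 against 0.569, 0.711, 0.581, 0.821 and 1.19 CPM, log2 fold change 1.04 ± 0.38, adjusted p = 0.0278). Foxp3 was called in 5 of the 10 fits that leave out 1 lung, and not without bleomycin lung 1 or 2 or saline lung 1, 2 or 3. The receptor chain Cd3e was not called (4.65, 4.58, 1.49, 4.31 and 4.92 against 5.01, 5.24, 6.10, 5.70 and 7.01 CPM), although 8 T cell genes were separate and lower, a share to be read beside the 8.86% of all genes. Of 10 mast cell and basophil genes 2 fell, Gata2 (log2 fold change −0.68 ± 0.15), which endothelium also makes, and Cpa3 (0.106 to 0.305 against 0.313 to 0.800 CPM, called in 4 of the 10 fits that leave out 1 lung). The count of 2 was 1 without bleomycin lung 2, 3 or 5 or saline lung 1, 2 or 5.

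In the alveolar epithelium, genes of the transitional state between type 2 and type 1 cells rose, 13 of 17 higher and none lower (median 0.89; 13 and 0.65 without lung 3). Krt8, a keratin that names this state, was at 182, 221, 252, 139.1 and 115.8 against 137.3, 141.9, 114.2, 105.4 and 88.03 CPM, a small rise with overlap (log2 fold change 0.63 ± 0.14, adjusted p = 1.82e-04). The tight junction gene Cldn4 was at 14.8, 17.4, 56.4, 5.23 and 5.83 against 4.96, 4.80, 4.36, 3.71 and 4.58 CPM (log2 fold change 2.15 ± 0.43, adjusted p = 4.46e-05). Lung 3 was more than 3 times any other, and the call held without it (1.301, adjusted p = 0.0166). Sprr1a (5.14, 9.45, 10.9, 2.96 and 3.10 against 0.362, 0.844, 0.727, 0.469 and 0.275 CPM, log2 fold change 3.54 ± 0.46) and lipocalin 2 (Lcn2, 479, 629, 529.9, 317 and 339 against 103.999, 121.97, 91.7, 121.6 and 95.4 CPM, log2 fold change 2.10 ± 0.29) were separate. Krt19 and Nupr1 were not called.

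Of 12 alveolar type 2 genes 4 rose and none fell, or 6 without lung 3. The surfactant protein gene Sftpc was at 19064, 20697, 10963, 18604 and 18802 CPM in bleomycin lungs and 16428, 15228, 13581, 14771 and 14763 CPM in saline lungs. Lungs 1, 2, 4 and 5 sat above every saline lung and lung 3 below them all, and Sftpc was not called (log2 fold change 0.24 ± 0.20, adjusted p = 0.396). Surfactant protein D (Sftpd, log2 fold change 0.65 ± 0.14), the mucin Muc1 (log2 fold change 0.67 ± 0.12) and the processing protease Napsa (log2 fold change 0.55 ± 0.12) rose. Of 14 type 1 genes, 8 rose and 1 fell, with 1 separate (Cldn18, 1145, 1312, 988, 864 and 791 against 729, 729, 596, 533 and 396 CPM, log2 fold change 0.77 ± 0.13). Ager was at 2579, 3246, 2152, 2030.2 and 1796 against 2457, 1914, 1636, 1533 and 1012 CPM, with overlap (log2 fold change 0.46 ± 0.16, adjusted p = 0.0166; not called without bleomycin lung 2 or saline lung 5), and Hopx was not called (−0.15 ± 0.18). The gene that fell was not called without bleomycin lung 1, 2 or 3 or saline lung 1, 3 or 4. The count of 8 was 4 without bleomycin lung 2 or saline lung 5, 5 without saline lung 4 and 3 when only the 10 lungs were fitted.

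Airway epithelial genes fell, with the most calls in club and ciliated cells. Of 11 club cell genes 9 fell and none rose, all 9 separate and all 9 also without lung 3 (median −1.19). The secretoglobin Scgb1a1 was at 8939.8, 7682, 4687, 9713 and 8195 CPM against 19392, 22030.2, 16917, 13724 and 17387 CPM (log2 fold change −1.19 ± 0.23, adjusted p = 2.09e-05). Cyp2f2, a cytochrome of club cells, was at 1016, 676, 396, 1219.9 and 1028 against 2038, 2482, 2119, 1628 and 2197 CPM (log2 fold change −1.27 ± 0.26). Of 14 ciliated cell genes 13 fell, all separate, with and without lung 3 (median −1.09). Foxj1, the regulator of cilia, was at 54.2, 32.6, 31.1, 61.1 and 47.2 against 107.9, 122.7, 92.7, 68.3 and 81.2 CPM (log2 fold change −1.06 ± 0.23, adjusted p = 1.79e-04). Of 13 basal and secretory genes 4 fell, Pigr (log2 fold change −1.01 ± 0.25), the mucin Muc5b (6.21, 10.7, 7.66, 19.9 and 10.2 against 34.7, 55.7, 52.4, 25.05 and 42.4 CPM, log2 fold change −1.95 ± 0.58), Bpifa1 and Bpifb1. The last 2 varied widely among saline lungs (19.3 to 238 CPM for Bpifa1, called in 4 of the 10 fits that leave out 1 lung), and 2 of the 13 were called without bleomycin lung 1, 3 or 5 or saline lung 2 or 3. The share of airway in each piece of lung was not measured.

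Of 14 general endothelial genes, 12 fell and none rose (median −0.38; 7 without bleomycin lung 2, bleomycin lung 3 or saline lung 5). The receptor of vascular endothelial growth factor Kdr was at 357, 318, 272, 467 and 536 against 548, 593, 641, 706 and 745 CPM (log2 fold change −0.73 ± 0.15, adjusted p = 4.83e-05), with lungs 4 and 5 nearest to saline. Aerocytes, the capillary cells that lie against type 1 cells, had 5 of 8 markers lower, led by Fibin (26.9, 27.7, 21.4, 35.9 and 40.6 against 73.6, 71.7, 77.7, 77.7 and 83.4 CPM, log2 fold change −1.33 ± 0.21) and Ednrb (48.6, 41.6, 33.5, 81.9 and 73.2 against 118.2, 123.3, 139.7, 145.3 and 152 CPM, log2 fold change −1.28 ± 0.24). Car4 fell as well (78.4, 81.2, 89.3, 116.9 and 122.1 against 169, 128.9, 151, 168 and 171 CPM, log2 fold change −0.69 ± 0.14, adjusted p = 2.84e-05). General capillaries had 2 of 8 lower and 1 higher (1 lower without lung 3). Vein and bronchial vessel markers had 3 of 7 higher and none lower: Ackr1 (1.33, 2.17, 5.91, 0.754 and 0.374 against 0.103, 0.222, 0.291, 0.195 and 0.412 CPM, log2 fold change 3.07 ± 0.50), Vwa1 (log2 fold change 1.29 ± 0.23) and, with lung 3 only, Selp (adjusted p = 0.444 without it). Arterial markers had 1 of 7 higher, which was called in 3 of the 10 fits that leave out 1 lung (not without bleomycin lung 2, 3 or 5 or saline lung 1, 2, 4 or 5), and 3 lower. Lymphatic markers had 3 of 5 higher (2 without lung 3), with Prox1, the regulator of lymphatic identity, at 12.1, 8.10, 19.4, 9.54 and 11.8 against 5.12, 4.71, 5.33, 4.30 and 5.91 CPM (log2 fold change 1.26 ± 0.23, adjusted p = 8.31e-06). In the mesothelium, the cell sheet over the lung, 1 of 9 markers rose, mesothelin (Msln, 148.8, 237, 354, 131.8 and 140.8 against 63.5, 114.6, 92.5, 131.9 and 102.9 CPM, log2 fold change 1.001 ± 0.26, adjusted p = 0.00143).

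**Figure D4:**
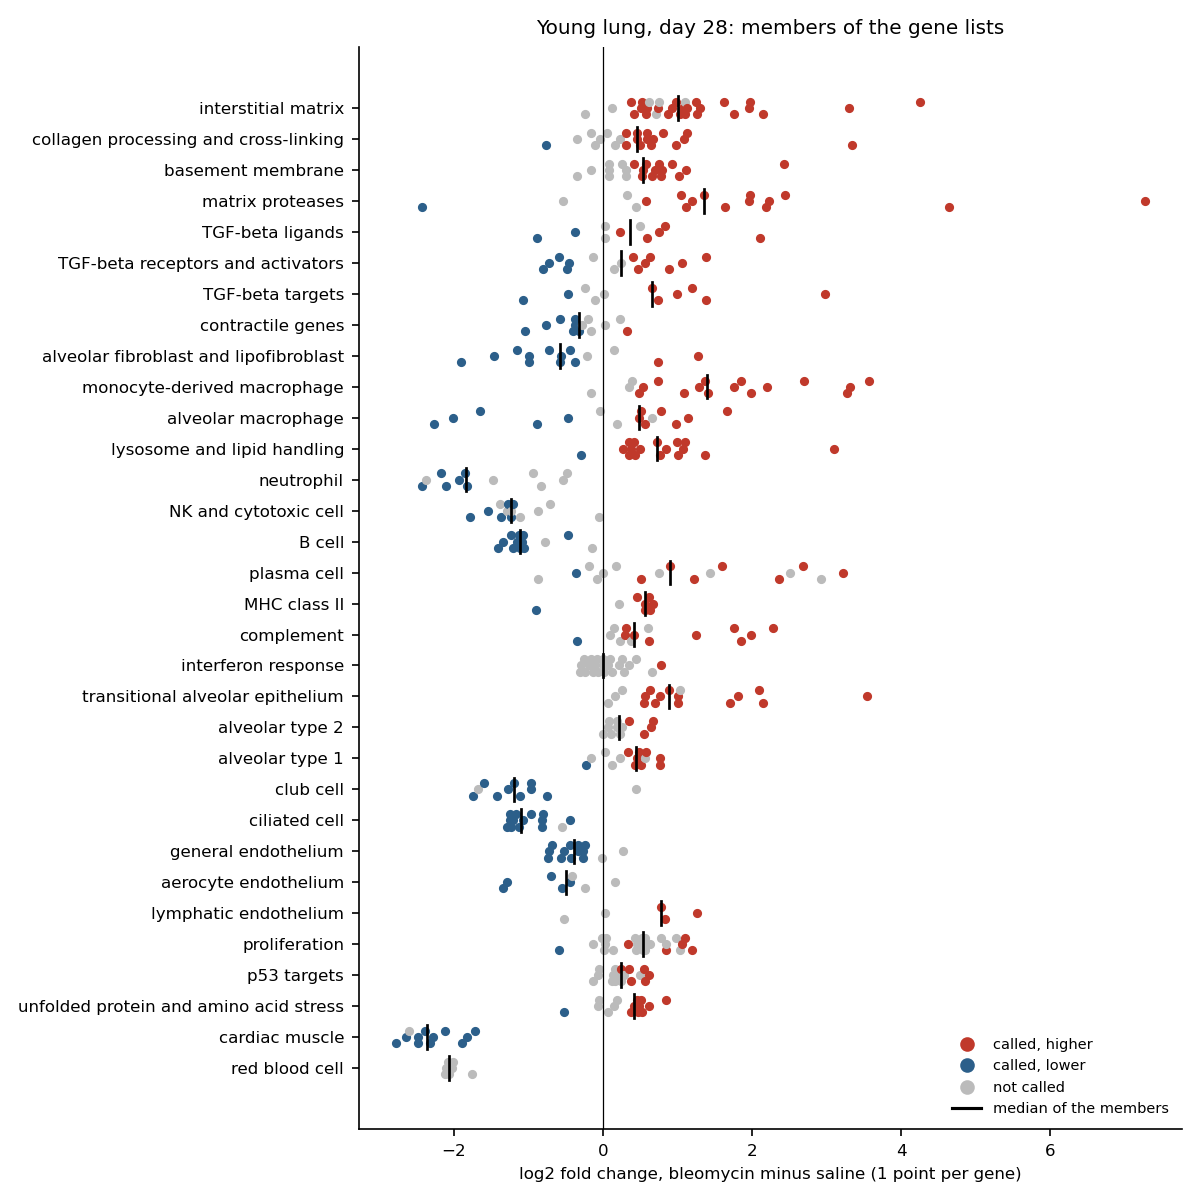
Log2 fold change (bleomycin minus saline, x axis) of every tested member of 32 lists (rows), 1 point a gene coloured by call, with a line at each list's median. Matrix protease, monocyte-derived macrophage and interstitial matrix members lie mostly right of 0 (medians 1.36, 1.39 and 1.01). Cardiac muscle and ciliated cell members lie left of it (−2.35 and −1.09), and club cell members lie mostly left of it (−1.19).

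Proliferation genes were called in 6 of 25 cases, 5 higher and 1 lower, a smaller share than the 29.2% of all genes. Without lung 3 none was called in either direction (3 higher without saline lung 3, 8 without bleomycin lung 5). Mki67, present in dividing cells, was at 10.2, 9.69, 31.7, 7.98 and 8.99 against 6.05, 8.53, 6.30, 6.06 and 7.74 CPM and was not called (adjusted p = 0.0731). Of 17 targets of p53, the DNA damage regulator, 6 rose and none fell, or 3 without bleomycin lung 3 or without saline lung 5. Cdkn1a, the cell cycle inhibitor p21, was at 532, 509.6, 701, 539 and 495 against 454, 369, 350.0, 382 and 339.5 CPM (log2 fold change 0.55 ± 0.15, adjusted p = 0.00188; adjusted p = 0.0165 without lung 3), and Ccng1 rose by 0.62 ± 0.11. Of 12 genes tied to senescence, 7 rose and 1 fell. Cdkn2a was at 2.28, 3.33, 3.94, 1.35 and 1.71 against 0.775, 0.355, 0.824, 0.703 and 1.01 CPM (log2 fold change 1.78 ± 0.36, adjusted p = 4.41e-05) and Igfbp3 was the gene that fell (32.5, 39.3, 33.4, 48.1 and 40.2 against 136.3, 75.2, 128.9, 118.2 and 112.8 CPM, log2 fold change −1.56 ± 0.23).

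Of 15 genes of the unfolded protein and amino acid stress responses, 9 rose and 1 fell, with the same counts without lung 3 (none fell without saline lung 4). Hspa5, the main chaperone of the endoplasmic reticulum, was at 1403, 1357, 779.6, 1201 and 948 against 776, 695, 826, 697 and 697 CPM (log2 fold change 0.62 ± 0.16, adjusted p = 0.00124). Lungs 1, 2, 4 and 5 were above every saline lung and lung 3 was within the saline range. Calreticulin (Calr) was at 892, 965, 747, 767 and 763 against 595, 521, 630.2, 542 and 604 CPM, separate (log2 fold change 0.52 ± 0.09, adjusted p = 9.48e-06), and Creld2 was at 85.8, 77.9, 39.5, 82.2 and 61.1 against 56.7, 44.5, 53.5, 47.4 and 46.1 CPM (log2 fold change 0.48 ± 0.18, adjusted p = 0.0344, called in 4 of the 10 fits that leave out 1 lung). Ddit3, Atf4 and Herpud1 were not called. The windows of Hspa5, Calr and Creld2 are shown because each holds the full endoplasmic reticulum stress element, CCAAT and CCACG with 9 bases between them, in capitals as read on the gene's strand (reversed in Calr and Creld2). That element was in 4 of the 13 list genes with a window, all 4 called higher (Hsp90b1 was the other), and in 0.119% of all windows on either strand. Pdia4, Sdf2l1 and Trib3 were called higher with no such element in their windows, and its part in any rise was not tested.
Hspa5 (chr2:34771840-34772139, plus strand): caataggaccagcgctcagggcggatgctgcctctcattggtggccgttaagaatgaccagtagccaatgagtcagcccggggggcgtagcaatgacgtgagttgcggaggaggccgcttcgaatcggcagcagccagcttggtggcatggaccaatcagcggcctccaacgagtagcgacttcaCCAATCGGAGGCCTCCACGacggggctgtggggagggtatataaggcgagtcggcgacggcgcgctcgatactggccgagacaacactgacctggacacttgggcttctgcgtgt
Calr (chr8:84846882-84847181, minus strand): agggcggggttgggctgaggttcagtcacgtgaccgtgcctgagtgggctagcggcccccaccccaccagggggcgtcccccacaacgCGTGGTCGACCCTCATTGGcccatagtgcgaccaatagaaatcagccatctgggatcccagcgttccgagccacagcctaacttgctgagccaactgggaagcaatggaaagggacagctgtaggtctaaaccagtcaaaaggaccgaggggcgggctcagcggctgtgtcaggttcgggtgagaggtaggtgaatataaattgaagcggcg
Creld2 (chr15:88819396-88819695, plus strand): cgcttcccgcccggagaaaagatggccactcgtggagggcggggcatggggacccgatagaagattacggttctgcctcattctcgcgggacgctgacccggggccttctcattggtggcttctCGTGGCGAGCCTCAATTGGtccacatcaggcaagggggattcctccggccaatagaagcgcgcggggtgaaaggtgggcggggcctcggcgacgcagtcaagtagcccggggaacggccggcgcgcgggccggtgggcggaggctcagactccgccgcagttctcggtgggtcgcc

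Of 12 antioxidant genes 6 rose and 2 fell, with haem oxygenase (Hmox1) at 67.5, 83.8, 138, 58.6 and 60.2 against 39.9, 43.1, 34.3, 38.7 and 32.4 CPM (log2 fold change 1.12 ± 0.18, adjusted p = 8.85e-07). Gpx2 and Nqo1, which airway epithelium makes, were those that fell (log2 fold change −0.85 ± 0.22 and log2 fold change −0.45 ± 0.15; Nqo1 was not called without bleomycin lung 3 or saline lung 2). Of 12 fatty acid synthesis genes 6 rose and 1 fell (of the 10 fits that leave out 1 lung, the fall was called only without bleomycin lung 4 or saline lung 3), with the desaturase Scd1 at 6669, 6309, 3389.8, 4094 and 4346 against 2288, 2913, 2349.8, 2204 and 2951 CPM (log2 fold change 0.97 ± 0.19, adjusted p = 2.48e-05). Of 17 cholesterol synthesis genes 4 rose and 2 fell (1 rose without bleomycin lung 2, and 1 fell without bleomycin lung 3 or 5 or saline lung 2, 3 or 4), and of 16 nuclear genes of oxidative phosphorylation 3 rose (none without bleomycin lung 2, 1 without lung 3, and 5 or 6 without bleomycin lung 4, bleomycin lung 5 or saline lung 1). Of the 6 mitochondrially encoded genes tested, 2 fell, and none was called without bleomycin lung 3 or without saline lung 2. Yet 4 of the 6 were separate and lower, beside 8.86% of all genes, and the mean log2 CPM of the list was below the saline range in all 5 bleomycin lungs. The other members, mt-Co2, mt-Co3 and mt-Atp6, had no read in any of the 10 lungs.

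Tissue other than lung parenchyma and the state of the sample were followed by 4 lists. Of 12 heart muscle genes 11 fell, all separate and all without lung 3 too (median −2.35). Myh6, a cardiac myosin heavy chain, was at 20.6, 3.08, 6.28, 70.3 and 13.6 against 221, 114.1, 165, 120.7 and 154 CPM (log2 fold change −2.77 ± 0.61, adjusted p = 1.93e-04). The summed level of the list was 34.5 to 236 CPM in bleomycin lungs, 343 to 672 CPM in saline lungs and 126.4 to 525 CPM in untreated lungs, and only Nppa reached 0, in bleomycin lung 1. The list was also lower in the other comparisons, each against its own saline lungs. On day 21 12 genes fell (median −1.97), on day 35 11 (median −1.94) and in old lungs of day 28 12 (median −2.36). In mice, heart muscle cells also sleeve the pulmonary veins, and how much of them each piece of tissue held was not measured. Of the 9 skeletal muscle genes tested, 3 fell, among them Ckm, which heart muscle also makes.

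The red blood cell list summed to 50.3 to 312 CPM in bleomycin lungs and 81.1 to 1586 CPM in saline lungs, with saline lungs 1, 4 and 5 high and 2 and 3 low. Untreated lungs summed to 47.3 to 226 CPM. None of its 7 genes was called in the edgeR test, and 3 were without saline lung 2 or without saline lung 3. Against the other young saline days, the saline lungs of day 28 had a median of 2.01 for the list, with none called. Hba-a1 and Hba-a2 are near-identical copies whose reads the counting may split. Of 14 immediate early genes, which respond within minutes to handling, 7 fell, and 1 without saline lung 1. Fos was at 110.9, 101.8, 148.4, 102.7 and 122.2 against 542, 240.4, 219.8, 196 and 149.7 CPM (log2 fold change −1.20 ± 0.33, adjusted p = 0.00274), with saline lung 1 highest and no call without it. Of 16 clock genes 3 rose and 4 fell, with Dbp at 5.86, 6.41, 40.2, 12.99 and 22.5 against 5.996, 7.42, 5.77, 11.5 and 7.88 CPM and lung 3 highest (adjusted p = 0.308 without it). Without lung 3, 1 clock gene rose and 2 fell, and 2 fell without saline lung 3 or 5. The part of collection time and tissue handling in any other result was not tested.

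The 12 largest rises among called, separate genes with an average log2 CPM above 1 were Grem1, Mmp12, Kng2, Thbs4, Saa3, Chl1, Spp1, Sprr1a, Pianp, Cemip, Rgs16 and P4ha3. The acute phase protein Saa3 was at 26.3, 56.8, 110.9, 15.4 and 9.84 against 3.98, 1.78, 2.03, 1.95 and 1.88 CPM (log2 fold change 4.25 ± 0.61, adjusted p = 4.10e-08). Cemip, which degrades hyaluronan, was at 11.004, 8.19, 27.7, 2.16 and 3.16 against 0.775, 0.844, 0.969, 1.17 and 1.28 CPM (log2 fold change 3.36 ± 0.65). Pianp was at 11.9, 15.2, 5.06, 6.84 and 4.5998 against 1.03, 0.711, 0.484, 0.899 and 0.825 CPM (log2 fold change 3.46 ± 0.32, adjusted p = 7.77e-16), with lungs 1 and 2 highest. The kininogen Kng2 was at 4.45, 3.23, 7.98, 1.78 and 1.07 against 0.0517, 0.311, 0.0969, 0.234 and 0.183 CPM (log2 fold change 4.32 ± 0.78), and the signalling regulator Rgs16 at 7.77, 11.7, 25.01, 4.47 and 3.53 against 1.40, 0.933, 0.727, 1.09 and 0.962 CPM (log2 fold change 3.35 ± 0.46). The 12 largest falls were Kcnj3, Atp6v1b1, Mybphl, Asgr1, Xirp2, Myh6, Myoz2, Ckmt2, Sln, Sult1d1, Mb and Csrp3. Of these, Mybphl, Xirp2, Myh6, Myoz2, Ckmt2, Sln, Mb and Csrp3 are genes of striated muscle, and Kcnj3 codes for a potassium channel of the atria. The others are the proton pump subunit Atp6v1b1 (0.381, 0.578, 0.213, 0.647 and 0.107 against 4.6003, 4.22, 2.91, 1.56 and 3.67 CPM, log2 fold change −3.11 ± 0.55), the receptor Asgr1 (0.190, 0.289, 0.0532, 0.808 and 0.267 against 2.43, 2.80, 2.23, 1.45 and 3.12 CPM, log2 fold change −2.91 ± 0.48) and the sulfotransferase Sult1d1 (log2 fold change −2.62 ± 0.57).

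Lungs of 4 untreated young mice were not uniform for the genes that rose most. Mmp12 ranged from 5.55 to 349 CPM among them, Spp1 from 122.5 to 429.7 CPM, Saa3 from 2.29 to 31.8 CPM and Chl1 from 0.191 to 8.59 CPM. At least 1 untreated lung was therefore above the saline range of day 28 in each of these genes. For Mmp12 the highest untreated lung was also above every bleomycin lung. By mean log2 CPM of a list, the highest untreated lung passed the highest bleomycin lung for type 2 response (6.47 against 3.79). The same held for plasma cell (5.58 against 4.84), chemokine (3.98 against 3.52) and unfolded protein lists (6.80 against 6.73), among others. For interstitial matrix the highest untreated lung was below the lowest bleomycin lung (6.71 against 6.80).

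The calls of day 28 were set beside those of the neighbouring days, each with its own saline lungs. Day 21 had 6678 called genes (3458 higher, 18.8%, and 3220 lower, 17.5%) and day 35 had 3626 (1862 higher, 10.1%, and 1764 lower, 9.59%). Genes called in the same direction on days 21 and 28 numbered 4145, which is 77.2% of the day 28 calls and 62.1% of the day 21 calls. For day 35 they numbered 2931, which is 54.6% of the day 28 calls and 80.8% of the day 35 calls. On all 3 days 1391 genes were called higher and 1326 lower, and 1010 genes were called on day 28 and on neither neighbour. The test of the difference in the bleomycin effect called 0 genes (0%) for day 28 against day 21 and 0 genes (0%) for day 28 against day 35 with edgeR, with 1058 and 509 at an unadjusted p under 0.05. DESeq2 called 4 and 0. Leaving out 1 lung gave at most 1 gene in either case, without saline lung 2 of day 21 and without saline lung 2 of day 35.

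Several lists had more genes called on day 21 than on day 28. The interstitial matrix list had 27 of 30 genes called higher on day 21, 24 on day 28 and 17 on day 35, with medians of 1.35, 1.01 and 0.70. Tnc had fold changes of 4.13, 3.30 and 2.88 on the 3 days, and Grem1 of 4.49, 5.10 and 3.26. Proliferation genes called higher numbered 18, 5 and 4 of 25, p53 targets 13, 6 and 1 of 17, and interferon response genes 10, 1 and 1 of 23. Plasma cell genes called higher numbered 11, 7 and 11 of 17, with medians of 1.66, 0.91 and 1.93. B cell genes called lower numbered 0, 11 and 0 of 13, with medians of −0.69, −1.11 and −0.61, and without bleomycin lung 3 the count of day 28 was 1. The saline lungs of day 28 had a B cell median of 0.59 against the other young saline days. None of the differences in the bleomycin effect between days passed the adjusted test for any single gene.

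In old mice on day 28, given 0.63 mg/kg, 7295 genes were called (3674 higher, 20.0%, and 3621 lower, 19.7%), and 4080 were called the same way in both ages, 75.96% of the young and 55.9% of the old calls. The interstitial matrix list had 29 of 30 genes higher there with a median of 1.68, against 1.01 in young lungs. Genes of the unfolded protein response had 2 higher and 2 lower of 15 in old lungs, against 9 and 1 in young lungs. The test of the difference between ages called 1 gene (0.00544%), with 1843 at an unadjusted p under 0.05. That gene, the secreted regulator Dlk1, rested on 1 old saline lung with 2683 reads where the other 4 had 0 to 8, beside 3 to 7 reads in old bleomycin lungs, 0 to 14 in young bleomycin lungs and 0 to 2 in young saline lungs. The count was 0 without that lung, without young bleomycin lung 1 or 2 and without young saline lung 1, 3 or 4. It was 0 with no filter on low counts and when only the 20 lungs were fitted, 2 to 5 without any one of old saline lungs 1 to 4, 61 without young bleomycin lung 3 and 75 without old bleomycin lung 4. Age and dose cannot be told apart here.

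**Figure D5:**
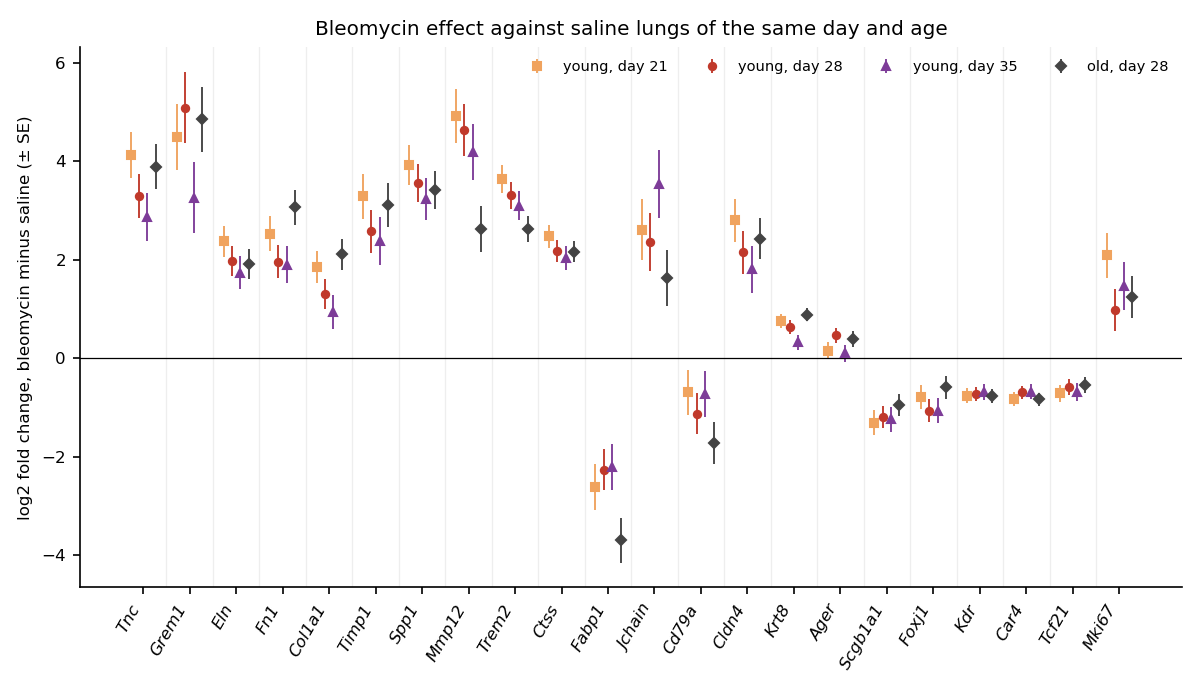
Log2 fold change (bleomycin minus saline of the same age and day) with its SE for 22 genes in young lungs on days 21, 28 and 35 and in old lungs on day 28. Tnc, Grem1, Spp1 and Mmp12 lie above 0 in all 4 comparisons and Cd79a lies below 0 in all 4, and on day 28 Tnc stands at 3.30 and Cd79a at −1.13.

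The saline lungs of day 28 were compared with the mean of the young saline groups of days 14, 21, 35, 42 and 56. The test called 55 genes (0.299%), 52 higher and 3 lower. Cd101, a gene of myeloid cells, was at 13.6, 32.1, 11.2, 16.5 and 11.5 CPM in the 5 saline lungs of day 28 (1.05 against the other days, adjusted p = 9.56e-04), with lung 2 highest. Jaml (0.85) and Nlrp12 (1.35) were higher as well, and Edn1 (−0.66) and Dusp6 (−0.50) lower. Without saline lung 2 the test called 0 genes, with 919 at an unadjusted p under 0.05, and without saline lung 4 it called 13. It called 94 without saline lung 2 of day 21, 89 without saline lung 4 of day 56 and 84 without saline lung 1 of day 28. Cd101 and Nlrp12 were called lower in bleomycin lungs of day 28 (log2 fold change −1.77 ± 0.26 and log2 fold change −2.39 ± 0.41).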

How the data were processed

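Poly-A mRNA of whole lung was sequenced, and the authors deposited 1 table of raw read counts per gene for 137 libraries. Per the submitters' processing notes, bcl2fastq 2.20.0.422, FastQC 0.11.5, STAR 2.5.2 and 2.5.2b, featureCounts 1.5.1 and RSEM 1.3.0 were used, and builds hg38, GRCh38 and GRCm38 are named, with no role or order. Strand, annotation release and the treatment of reads that match several genes are not given in the sources used here, so near-identical copies and overlapping or antisense genes are uncertain. Gene names came from GENCODE M21 and matched 18348 of the 18396 genes tested.

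The deposited counts were tested with edgeR 4.0.16 (R 4.3.3, limma 3.58.1): genes were kept by filterByExpr (minimum count 10, minimum total 15), scaled by TMM and fitted with the robust quasi-likelihood model over all 137 libraries, so that all groups share 1 estimate of the spread (111 residual degrees of freedom). P-values are two-sided and were adjusted by Benjamini-Hochberg over all genes tested, with a threshold of 0.05. Each SE was derived from the fold change and the F statistic of its test. The alternatives were RLE scaling, no filter, DESeq2 1.42.0, libraries of young mice only, the groups of a comparison only, and leaving out each lung. The scripts were tested on simulated data.

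The members and lists were chosen with earlier results of these data known. Genes named by rule are a panel of 32, the 12 largest rises and falls among called, separate genes with an average log2 CPM above 1 (unnamed models, pseudogenes and receptor segments left out), up to 3 genes per list with the smallest p, and 4 per direction for each other comparison. Other genes named were chosen after their values were seen. Promoter windows came from RefSeq.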

Additional observations from a re-analysis of the deposited data

Results flagged for a closer look

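In 25 of 222 groups of 5 values examined, 1 lung lay far from the other 4 of its group, by a gap test that flags about 1 group in 20 by chance. Most of the flags fell on bleomycin lung 3. Its levels were the highest for Col1a1 (2591 CPM), Col3a1 (3171 CPM), Mki67 (31.7 CPM) and Cdkn1a (701 CPM), and the lowest for Cd79a (1.92 CPM) and Sftpc (10963 CPM). Among list levels, given as mean log2 CPM, it was highest for interstitial matrix (8.23), collagen processing and cross-linking (6.42), TGF-beta targets (7.52), TGF-beta and BMP antagonists (4.37), proliferation (2.95) and p53 targets (6.71). It was lowest for alveolar fibroblast and lipofibroblast (6.18), T cell (1.17), NK and cytotoxic cell (−0.48), B cell (1.36), plasma cell (3.29), MHC class II (6.87) and alveolar type 2 genes (9.91).

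Among saline lungs, lung 1 was highest for Apoe (769 CPM), Saa3 (3.98 CPM), chemokines (3.02 mean log2 CPM) and oxidative phosphorylation (6.39). Saline lung 2 was highest for adventitial fibroblast genes (5.44), and saline lung 4 for circadian clock genes (5.43).

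The bleomycin effect on Dlk1 differed between ages, by 10.31 ± 2.02 log2 units, young minus old (adjusted p = 0.0235, edgeR's quasi-likelihood test). The difference rests on 1 old saline lung with 2683 reads, where the other 4 had 0 to 8.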

How the results depend on the processing

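The 5371 genes called for bleomycin against saline became 5389 with RLE scaling, 4517 with no filter, 5454 with DESeq2, 6194 with young libraries only, 4146 with the 10 lungs only, and 3913 (without bleomycin lung 3) to 5833 (without bleomycin lung 4) when 1 lung was left out; 3225 genes were called in all 10 of those fits. The count for day 28 minus day 21 was 4 with DESeq2 and 0 to 1 with a lung left out, and that for day 28 minus day 35 was 0 to 1. The count for young minus old was 0 with no filter, 0 with only the groups compared, and 0 to 75 with a lung left out. The count for saline of day 28 against the other days was 162 with young libraries only, 285 with only the groups compared, and 0 to 94 with a lung left out. None of the results recomputed changed direction past the threshold. Of the named genes, RLE scaling changed no call (219 the same), DESeq2 changed 2 and no filter 9, and the fit of 10 lungs alone ended 11 and added 5. The fit of 10 lungs alone also left the oxidative phosphorylation list with 0 calls.

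No paired analysis was possible because no number in the labels links a bleomycin lung to a saline lung. At this depth, genes under the count filter were not tested. The cause of the spread between bleomycin lungs was not tested.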
